A study of Mus musculus with 3 samples.

Results

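MatFB-Type 2 is a fibroblast class that the submitters named in their deposited cell annotation of neonatal mouse lung mesenchyme. Its members were taken from that annotation without change, and they number 700 of 6142 cells. The GFP-low tdT-negative library held 651 of them, which is 50.7% of its 1284 cells (exact 95% interval 47.9 to 53.5%). The GFP-high tdT-negative library, here the GFP-high library, held 44 of 3347 cells (1.31%, 0.957 to 1.76%), and the GFP-high tdT-high library, here the tdT-high library, held 5 of 1511 (0.331%, 0.108 to 0.771%). The sort gates set these shares in part, so they are not shares of the lung.

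Matrix fibroblasts of the alveolus lie in the septal wall beside type II epithelial cells and capillaries. They make elastic and basement membrane matrix, growth factors for the epithelium such as FGF10 and WNT ligands, and retinoid and lipid handling proteins. They are distinct from the alveolar myofibroblast, the contractile, PDGFRA-high cell that drives septation after birth, and from the adventitial fibroblast of the vessel and airway sheath. TCF21 is a transcription factor of alveolar fibroblasts and their lipid-storing relatives, WNT2 is a ligand needed for lung specification, and nephronectin (Npnt) is the matrix ligand of integrin α8β1. Nebulette (Nebl) and LIMCH1 bind actin filaments.

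The libraries came from pups that carried Fgf18CreERT2/+, ROSATDTomato/+ and PdgfrαEGFP/+ alleles together, were given tamoxifen on postnatal days 2 to 5, and were taken on day 7. All 3 sorted groups share this genotype and treatment, so none is an untreated or wild-type control, and each cell carries a reporter in place of a Pdgfra copy. The Cre is driven from the Fgf18 locus and marks cells that expressed Fgf18 during the tamoxifen days with tdTomato. GFP reports Pdgfra transcription. Each gate was sequenced as 1 library with droplet-based 3' chemistry, and the sources used here do not say if several pups were pooled for it.

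With 1 library per gate no difference has a replicate check, and no p-value is given. Each level is the sum of unique molecular identifiers (UMIs) of a gene over the cells of a type, as counts per 1000000 UMIs of those cells (CPM). Each ratio carries an exact 95% interval that covers counting error only. A gene was called when it was at least 2-fold higher or lower, among genes that reached 50 CPM and were detected in 10% or more of the cells in the higher group. The sources used here do not say how the submitters assigned the types. If the types were drawn from these same transcripts, the type differences follow from that choice in part, so ratios between types are descriptions.

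Library medians of depth were close, while cells ran from 5862 to 52382 UMIs in the GFP-low library and from 8314 to 40893 in the GFP-high library. The median MatFB-Type 2 cell had 19471 UMIs and 4886 genes in the GFP-low library, 18698 UMIs and 4924 genes in the GFP-high library, and 19870 UMIs and 5351 genes in the tdT-high library. Summed over cells this gave 13108570, 889260 and 101625 UMIs, so 3 counts, the limit that a count of 0 allows, equal 0.229, 3.37 and 29.5 CPM. The median mitochondrial share was 3.90%, 2.42% and 3.84%. The 5 cells of the tdT-high library were too few for comparisons. The GFP-low and GFP-high libraries shared 3 cell barcodes, each belonging to a MatFB-Type 2 cell in at least 1 of these libraries. No barcode was shared between the GFP-low and tdT-high libraries.

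The 5 genes used as markers of the class were high in it. They were chosen for this class, so their levels are no check of the label. In the GFP-low library Limch1 stood at 4371 CPM, Nebl at 3126, Npnt at 2176, Tcf21 at 1051 and Wnt2 at 123.1 CPM. Cells of the class were alike in this: Nebl, Npnt and Limch1 each had a UMI in 651 of 651 cells, Tcf21 in 644 and Wnt2 in 509. The per-cell level of Nebl ran from 891 to 14958 CPM with a median of 2842, and that of Npnt from 153 to 5235 with a median of 2037. All 5 markers were detected in 508 cells (78.0%) and at least 4 in 645 (99.1%). The same 5 were all detected in 63.3% of MatFB-Type 1 cells, 47.8% of MatFB-Im,Cuff cells, 0.676% of AdvFB (adventitial fibroblast) cells and 0 of 66 MyoFB (myofibroblast) cells of that library. In mm10 coordinates, Nebl lies at chr2:17343909-17731464 and Npnt at chr3:132881745-132950291, both on the minus strand. Tcf21 lies at chr10:22817281-22820174 and Wnt2 at chr6:17988940-18030585 on the minus strand, and Limch1 at chr5:66745827-67057158 on the plus strand. These are spans of whole genes, and 3' counting reads only their ends.

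**Figure D1:**
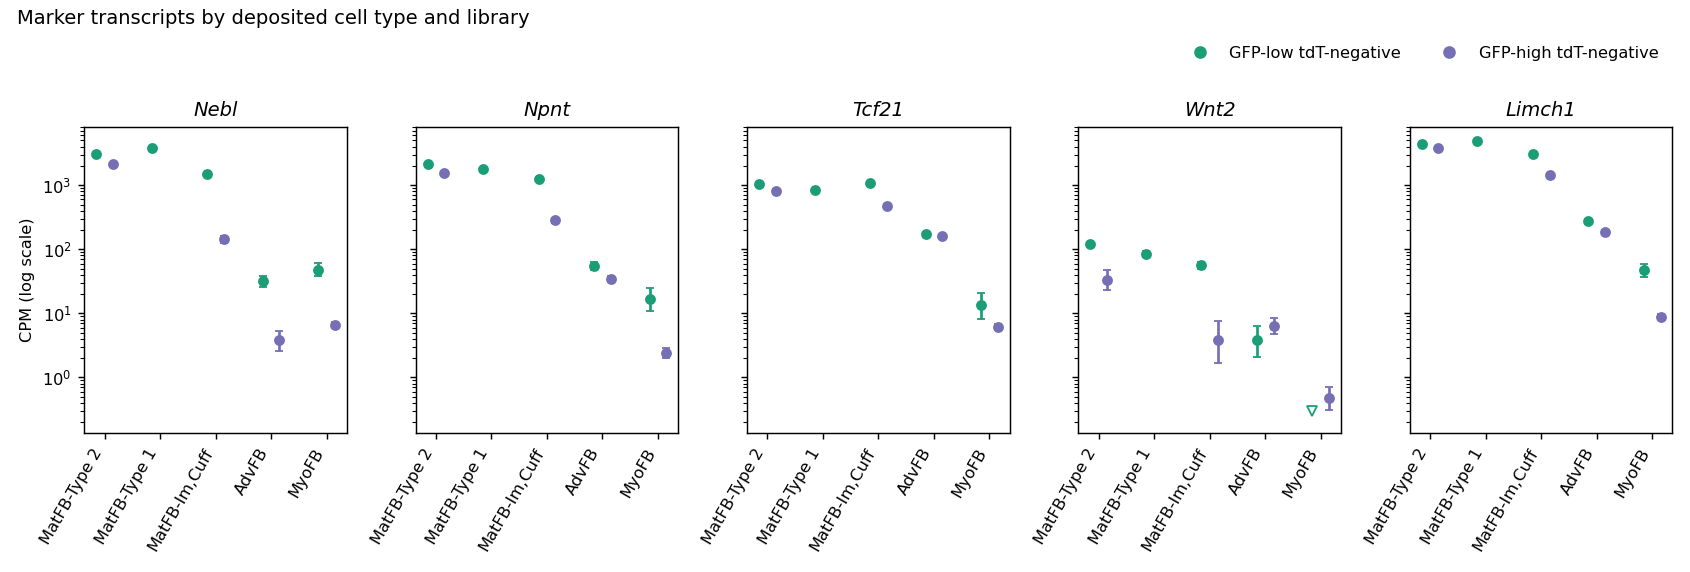
CPM (log scale) of the 5 marker genes in 5 cell types, with green points for the GFP-low library and purple points for the GFP-high library, bars for the exact 95% counting interval and an open triangle for 0 UMIs. Levels are high in MatFB-Type 2 and MatFB-Type 1 and fall through MatFB-Im,Cuff to AdvFB and MyoFB, with the exception of Tcf21, which is about as high in MatFB-Im,Cuff as in MatFB-Type 2 of the GFP-low library.

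The summed level of the 5 markers ordered the types. In the GFP-low library it was 11525 CPM in MatFB-Type 1, 10847 in MatFB-Type 2, 6935 in MatFB-Im,Cuff, 535 in AdvFB and 125 in MyoFB. The GFP-high library had 8391 CPM in MatFB-Type 2, 2348 in MatFB-Im,Cuff, 396 in AdvFB and 24.5 in MyoFB. MatFB-Type 2 and MatFB-Type 1 were thus close neighbours, and the markers alone do not separate them.

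Markers of other lung cells were low. Of 12 endothelial markers 1 reached 10 CPM in MatFB-Type 2 cells of the GFP-low library, their sum was 35.9 CPM, and Kdr and Cldn5 were at 0. The 14 epithelial markers summed to 45.8 CPM, of which Hopx gave 31.3, with Nkx2-1 at 0. The 12 immune markers summed to 12.97 CPM with Cd3e at 0, the 7 erythroid markers to 17.7 CPM, and the 10 mesothelial markers to 67.1 CPM, of which Nkain4 gave 66.2 and Wt1 and Msln were at 0. Some markers of neighbouring mesenchyme were shared: Dpt, a matrix protein listed as adventitial, stood at 1075 CPM, and Mylk, myosin light chain kinase listed as smooth muscle, at 1274 CPM. Col15a1, the collagen of adventitial cells, was at 0.

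The question of the comparison with MyoFB is what sets the alveolar matrix fibroblast apart from the septal myofibroblast. In the GFP-low library 503 of 4274 genes (11.8%) were at least 2-fold higher in MatFB-Type 2 cells and 565 (13.2%) at least 2-fold lower than in 66 MyoFB cells. With 44 against 2659 cells of the GFP-high library, 505 of 4391 genes (11.5%) were higher and 519 (11.8%) lower. Of the higher calls 341 were made in both libraries, which is 67.8% of the GFP-low calls and 67.5% of the others, and none was called in the opposite direction. Of the lower calls 318 were made in both (56.3% and 61.3%), and 9 were called in the opposite direction. The cells on both sides differ between the libraries, so this overlap compares separate cells.

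The genes highest over MyoFB included metabolic enzymes and signalling proteins. Inmt, an indolethylamine methyltransferase, stood at 464 CPM against 0.670 CPM, which was 1 UMI, a ratio of 692 (124 to 27341). Ces1d, a carboxylesterase that hydrolyses lipid esters, stood at 209 CPM against 0 UMIs, at least 104-fold higher. Wnt2 at 123.1 CPM and Rspo2, an R-spondin that amplifies Wnt signals, at 105 CPM also met 0 UMIs in MyoFB, at least 61.2-fold and 52.0-fold higher. These genes were close to absent from the myofibroblasts of that library. Amph, an amphiphysin of membrane curvature, stood at 365 CPM against 0.670 (544-fold, 97.6 to 21489), and Meox2, a homeobox factor, at 339 against 1.34 (253-fold, 69.9 to 2086). Rapgef5, a Rap exchange factor, was at 466 CPM against 2.01 (232-fold, 79.3 to 1124), and Brinp1 at 303 against 1.34 (226-fold, 62.6 to 1868). Each of these ratios rests on 1 to 3 MyoFB UMIs, which is why the intervals are wide.

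Where MyoFB counts were larger the ratios were tighter. Npnt was 130-fold higher (87.9 to 201), Inpp4b, a phosphoinositide phosphatase, 102-fold (56.9 to 204), Limch1 93.1-fold (73.7 to 120), Tcf21 78.4-fold (50.8 to 128) and Nebl 64.8-fold (51.4 to 82.8). The 12 highest genes of the GFP-high library held Npnt (631-fold, 526 to 762), Limch1 (438-fold, 397 to 483), Nebl (323-fold, 288 to 363), Inmt, Amph and Brinp1. They also held Maf, a bZIP transcription factor, at 818 CPM against 0.779, the complement component C7 at 301 CPM against 0.133, and the integrin subunit Itga8, a receptor chain for nephronectin, at 775 CPM against 2.34.

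**Figure D2:**
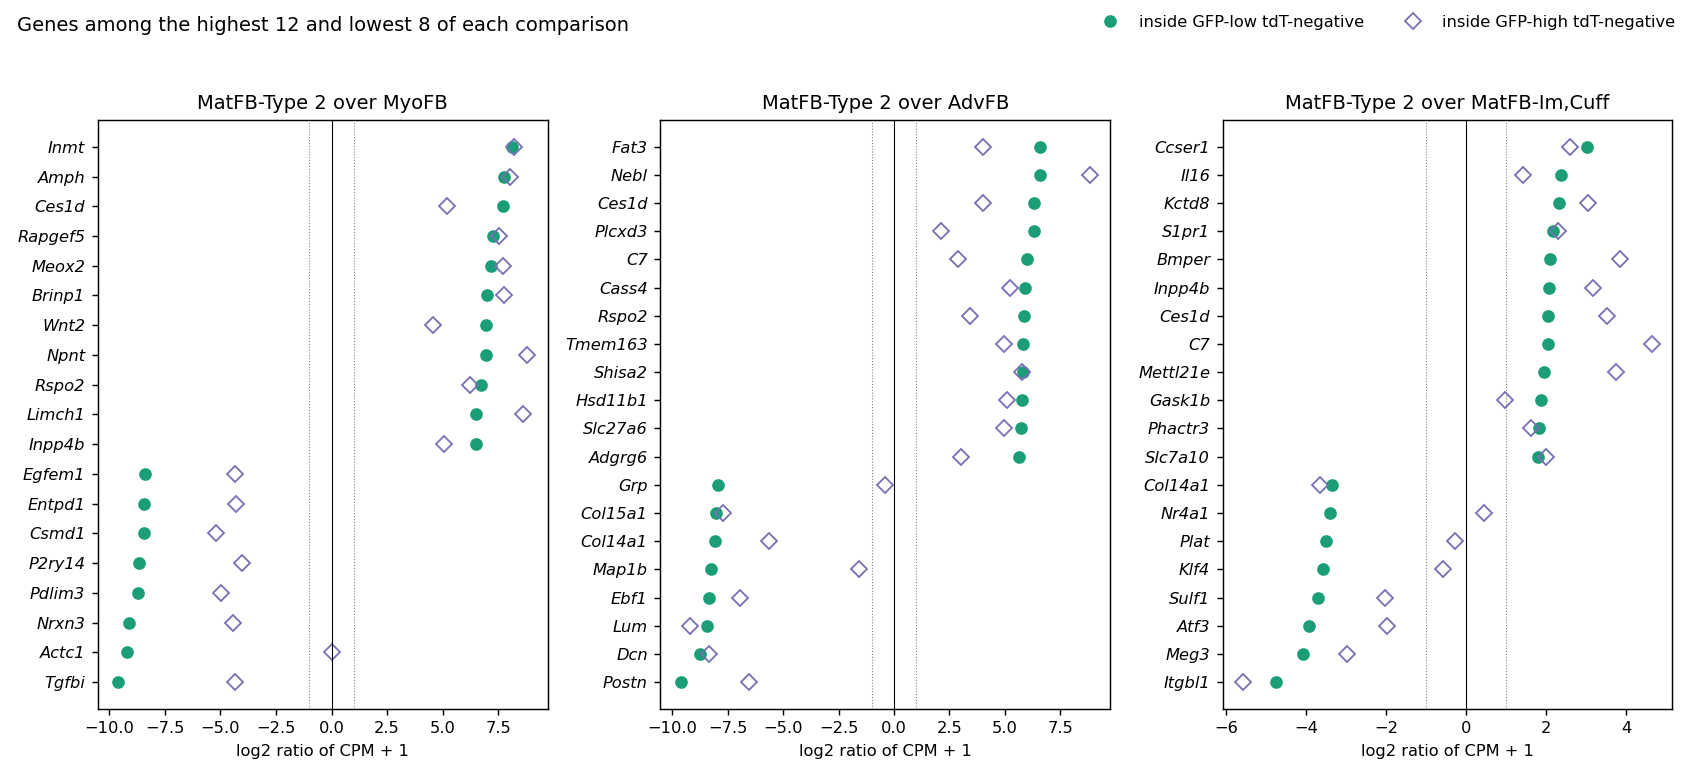
Log2 ratio of CPM + 1 of MatFB-Type 2 over MyoFB, AdvFB and MatFB-Im,Cuff for genes among the 12 highest and 8 lowest of each comparison in the GFP-low library (filled circles), with the same gene in the GFP-high library (open diamonds) and dotted lines at a 2-fold difference. The genes higher over MyoFB and AdvFB lie on the same side in both libraries, whereas Actc1, Grp, Plat, Klf4, Nr4a1 and Gask1b lie between the dotted lines in the second library.

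The genes lowest against MyoFB were of several kinds. Tgfbi, a TGF-β-induced matrix protein, stood at 0.992 CPM against 1540, 1553-fold lower (906 to 2921). Nrxn3, a neurexin, stood at 2.21 CPM against 1777 (803-fold lower, 558 to 1202), Egfem1, an EGF-like domain protein, at 15.2 against 5443 (359-fold lower, 311 to 415), and Csmd1 at 2.06 against 1080 (524-fold lower, 359 to 798). P2ry14, a receptor for UDP-sugars, had 0.229 CPM against 499, and Entpd1, an ectonucleotidase, 0.305 against 451. Each of these was called lower in the GFP-high library too. Actc1, cardiac α-actin, was at 0.153 CPM against 676 in the GFP-low library but at 0 UMIs in both types of the other library. Of the 66 MyoFB cells of the GFP-low library, 23 carried the submitters' name MyoFB-Ter. These 23 had Acta2 at 3586 CPM and Pdgfra at 2.09, against 914 and 502 in MyoFB-IMR and 1462 and 301 in MyoFB-Int. The ratios to MyoFB in that library are to the pooled cells.

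Contractile genes were low in MatFB-Type 2 cells. Smooth muscle actin Acta2 stood at 53.3 CPM against 1960 in MyoFB (36.8-fold lower, 33.8 to 40.0), transgelin Tagln at 101 against 2193, and smooth muscle myosin Myh11 at 4.35 against 1083. Of 25 genes of the contractile apparatus 16 were called lower and 2 higher, with a median log2 ratio of -1.61 beside -0.05 over all genes measured. Such medians are over genes with at least 10 UMIs in either group. Among cells sorted GFP-high 13 were called lower and 1 higher, with a median of -1.20 beside -0.29, or beside 0.20 with genes at 0 UMIs set to the 3-count limit. Mylk was an exception at 1274 CPM against 934, and was not called. Of 15 alveolar myofibroblast markers 14 were called lower in the GFP-low library and 13 in the other. Of 26 alveolar fibroblast markers 26 and 23 were called higher, with medians of 5.63 (5.59 with genes at 0 UMIs at that limit) and 5.55. These marker lists were chosen for cells of this kind, so their direction is no independent evidence.

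Actin-binding proteins were found on both sides. Of 20 actin linkers and LIM proteins 5 were higher and 8 lower than in MyoFB of the GFP-low library. The shares over all tested genes were 11.8% and 13.2%. The higher members were led by Macf1, a giant actin and microtubule cross-linker, at 10711 CPM against 587 (18.3-fold, 17.1 to 19.5), with Limch1, Nebl and the LIM protein Fhl1 at 1998 against 322 (6.21-fold, 5.67 to 6.81). The lower members included Pdlim3, a Z-disc LIM protein, at 0.153 CPM against 477. Of 16 integrins only Itga8 was called higher, at 1143 CPM against 57.0 (20.1-fold, 16.2 to 25.1), so Npnt and a chain of its receptor were high in the same class.

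Some ligands and receptors of epithelial signalling were higher in MatFB-Type 2 cells. Of all tested genes 11.8% were called higher than in MyoFB and 13.2% lower. These shares, and those given for the other comparisons, are over genes with the level needed for a call. Counts of the gene lists in every comparison are over all listed genes unless stated, so they are a description only. Of 20 genes of the FGF family, 11 of which had the level needed for a call, 4 were higher and 2 lower. Fgf10, the ligand that drives distal epithelial growth, stood at 288 CPM against 5.36 (53.7-fold, 27.2 to 125). The receptors Fgfr4, at 383 CPM against 5.36 (71.3-fold, 36.2 to 165), and Fgfr3, at 197 against 6.03 (32.6-fold, 17.1 to 71.4), were high on the same side. Fgf18, the gene that drives the Cre, went the other way at 1.07 CPM against 57.0 (53.4-fold lower, 30.1 to 102). Of 37 Wnt genes 18 had that level and 3 were higher, among them Wnt2 and Rspo2. Another 8 were lower, among them the ligands Wnt5a at 135 CPM against 437 (3.25-fold lower, 2.96 to 3.55) and Wnt11 at 1.37 against 59.0. The R-spondin receptor Lgr6 had 1 UMI, 0.0763 CPM, against 354 CPM, so the R-spondin and this receptor were on opposite sides. In the GFP-high library Lgr6 was at 6.75 CPM against 102 CPM in MyoFB, the same side with a smaller gap.

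Among vascular factors 5 of 14 were higher and 2 lower, beside 11.8% and 13.2% of all tested genes. Vegfd stood at 417 CPM against 7.37 (56.6-fold, 31.6 to 113), Vegfa, the main endothelial growth factor, at 157 against 30.2 (5.20-fold, 3.87 to 7.15) and Angpt1, the TIE2 agonist, at 516 against 115 (4.48-fold, 3.85 to 5.24). Of 29 guidance genes 6 were higher and 10 lower. The secreted repellents Slit2, at 4444 CPM against 120 (37.0-fold, 32.0 to 43.1), and Slit3, at 1015 against 49.6, and the netrin receptor Unc5c, at 1115 against 36.9, were on the higher side. Ntn4 and the semaphorin Sema3c, at 0.229 CPM against 192 and 5.65 against 431, were on the lower side. In the TGF-β list the receptor Tgfbr2 was the called gene on the higher side, at 506 CPM against 99.2 (5.10-fold, 4.33 to 6.04), and 8 of 18 genes were lower, including Tgfbi and the latent binding protein Ltbp2.

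Matrix genes split by kind. Mfap4, a microfibril protein, was the leading elastic fibre gene at 8862 CPM against 318 (27.8-fold, 25.4 to 30.5), and Fbln5, a fibulin of elastic fibre assembly, stood at 556 against 18.1. Fbn2, Ltbp2 and the lysyl oxidase Loxl2 were lower, at 17.5 against 176, 98.9 against 635 and 29.8 against 467 CPM. Elastin itself was at 4010 CPM against 5808 and was not called. Of 25 collagens 4 were higher, among them the transmembrane collagens Col13a1 (494 CPM against 9.39), Col25a1 (228 against 2.68) and Col23a1 (237 against 16.8), and 5 were lower. Basement membrane genes had 4 of 22 higher, with Npnt and the FRAS-complex protein Frem1 at 589 CPM against 21.5.

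Lipid handling genes were split. Of 40 in the list 7 were higher and 4 lower than in MyoFB, with a median log2 ratio of -0.09 beside -0.05 over all genes. The higher members were the apolipoprotein Apoe (817 CPM against 133), the lipolysis inhibitor G0s2 (708 against 115), the fatty acid transporter Slc27a6 (341 against 6.03, 56.5-fold, 29.7 to 124), Ces1d and the droplet coat protein Plin2 (174 against 46.9, 3.70-fold, 2.92 to 4.77) among others. Of 19 retinoid genes 4 had the level needed for a call and 3 were higher, too few to describe the list. Among them were the alcohol dehydrogenase Adh1 at 476 CPM against 6.70 and the retinal dehydrogenase Aldh1a1 at 119 against 14.1. The retinoic acid receptor Rarb was lower at 4.20 against 146 CPM. Of 16 glucocorticoid genes 3 were higher, led by Hsd11b1, the enzyme that regenerates active glucocorticoid, at 728 CPM against 10.1 (72.4-fold, 43.8 to 129), with its cofactor-supplying partner H6pd at 79.7 against 14.7. Of 20 transporters 6 were higher, among them the amino acid carriers Slc7a10, Slc38a5 and Slc36a2. The peptidase Enpep, which degrades angiotensin II, was 72.3-fold higher (43.1 to 132), and angiotensinogen, Agt, was 121-fold lower (94.3 to 157).

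Against AdvFB the question is what separates the alveolar from the adventitial fibroblast. Among GFP-low cells 524 of 4132 genes (12.7%) were at least 2-fold higher in MatFB-Type 2 and 617 (14.9%) lower than in 148 AdvFB cells. With 44 against 328 cells of the GFP-high library, 474 of 4176 (11.4%) were higher and 443 (10.6%) lower. Calls made in both libraries numbered 310 higher, 59.2% of the GFP-low calls and 65.4% of the others, and 304 lower (49.3% and 68.6%). Opposite calls numbered 2 and 12. Contractile transcripts bear on these comparisons: 40 of the 148 AdvFB cells of the GFP-low library had over 1000 CPM of Acta2. Without these 40 cells 527 genes were higher, 480 of them shared with the call on all cells, and 569 lower, 504 of them shared.

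The highest genes over AdvFB were of several kinds. Fat3, a giant atypical cadherin, stood at 880 CPM against 8.15 (108-fold, 75.6 to 160), Nebl at 3126 against 31.5 (99.2-fold, 82.7 to 120), and Ces1d at 209 against 1.63 (128-fold, 58.9 to 350). C7 stood at 387 CPM against 5.16, Cass4, a focal adhesion scaffold, at 122.8 against 1.09 (113-fold, 44.1 to 415), and Hsd11b1 at 728 against 12.2 (59.5-fold, 44.4 to 81.7). Shisa2, which restrains FGF and Wnt receptor maturation, stood at 55.9 CPM against 0 UMIs, at least 68.6-fold higher. Plcxd3 at 100 CPM met 1 AdvFB UMI (369-fold, 66.1 to 14588), Rspo2 at 105 CPM met 3 (128-fold, 43.8 to 623) and Tmem163, a zinc transporter, at 87.0 CPM met 2. Nebl, Hsd11b1, Cass4 and Shisa2 were among the 12 highest in the GFP-high library as well, where Nebl was 571-fold (401 to 842), Cpm, a membrane carboxypeptidase, 272-fold (160 to 502) and Fgfr4 199-fold higher (88.8 to 551). The other markers were higher by less: Npnt 39.5-fold, Wnt2 32.4-fold, Limch1 16.0-fold and Tcf21 6.14-fold in the GFP-low library.

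The lowest genes against AdvFB included adventitial matrix genes. Periostin, Postn, stood at 1.60 CPM against 2036 (1271-fold lower), the proteoglycan decorin, Dcn, at 5.19 against 2674 (515-fold lower), Col14a1 at 5.57 against 1767 (317-fold lower) and the transcription factor Ebf1 at 2.52 against 1127 (448-fold lower, 318 to 651). Lumican, Lum, had 1 UMI against 371 CPM (4867-fold lower, 872 to 192383), and Col15a1 had 0 UMIs against 261 CPM, at least 1142-fold lower. Lum and Col15a1 had 0 UMIs in MatFB-Type 2 cells of the GFP-high library, at least 176-fold and 62.7-fold lower, and Dcn was at 18.0 CPM against 6117. Grp and Map1b were lower in AdvFB without the 40 cells with high Acta2, at 25.1 CPM in place of 265 and 232 CPM in place of 678. Both stayed far below this in MatFB-Type 2, with log2 ratios of -4.60 and -6.71.

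Collagens were lower as a list against AdvFB in both libraries. Of 25 collagens 11 were lower and 4 higher than in AdvFB, with a median log2 ratio of -1.67 beside 0.14 over all genes, and 10 lower and 2 higher with a median of -1.63 (-1.56 at that limit) beside 0.02 (0.13) in the GFP-high library. Col1a1 stood at 1192 CPM against 12793 (10.7-fold lower, 10.5 to 10.9), Col3a1 at 1458 against 16178 (11.1-fold, 10.9 to 11.3) and Col1a2 at 1479 against 12509 (8.46-fold, 8.32 to 8.60). In the other library the same 3 were 9.93-fold, 10.0-fold and 8.39-fold lower, so these differences were of like size in separate cells. Col13a1 stood out on the higher side at 494 CPM against 10.3 (47.9-fold, 34.9 to 67.8). Sparc, a collagen chaperone of the matrix, was 4.29-fold lower (4.23 to 4.36).

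Adventitial markers were lower as a list but not in each member. Of 15, 10 were lower and 1 higher in the GFP-low library, and 11 lower in the other. Dpt, at 1075 CPM against 1047, Clec3b, at 538 against 597, and the glypican Gpc3, at 872 against 1187, were not called in the GFP-low library, where Dpep1, a dipeptidase, was higher at 422 against 167. Without the 40 AdvFB cells with high Acta2, 10 of the 15 were lower and 0 higher, so Dpep1 was not called there. Of 21 matrix proteases and inhibitors 11 were lower and 1 higher, beside 14.9% and 12.7% of all tested genes in the GFP-low library. The higher member was Adamts17 at 1202 CPM against 86.1 (13.96-fold, 12.5 to 15.7). Of 20 chemokines and cytokines 6 were lower, among them Cxcl12, the CXCR4 ligand, at 11.4 CPM against 187 (16.5-fold, 13.8 to 19.8), and 1 was higher, the KIT ligand Kitl, at 281 against 15.2 (18.5-fold, 14.2 to 24.5).

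Of 38 transcription factors of mesenchyme 7 were higher and 12 lower in the GFP-low library, and 6 higher and 11 lower in the other, beside 12.7% and 14.9%, and 11.4% and 10.6%, of all tested genes. The T-box genes of lung mesenchyme were on the higher side. Tbx4 stood at 355 CPM against 19.8 (17.9-fold, 14.2 to 22.9) and Tbx2 at 427 against 32.1 (13.3-fold, 11.1 to 16.1), and both were higher in the GFP-high library, 14.7-fold and 10.9-fold. Ebf1, Ebf2 and Twist2 were on the lower side. Of 20 FGF genes 5 were higher, with Fgf10 12.2-fold (9.86 to 15.3) and Fgf7, the keratinocyte growth factor, 3.88-fold (3.22 to 4.73). The BMP modulator Bmper and the ligand Bmp5 were higher, at 444 CPM against 21.2 and 262 against 27.7. Of 19 PDGF and IGF genes the GFP-low library had 8 called lower and 0 higher, and the other 7 and 0.

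The sign of the contractile genes against AdvFB turned between libraries. In the GFP-low library Acta2 had a log2 ratio of -4.77 and Tagln of -3.45, and 12 of 25 contractile genes were lower and 2 higher. The GFP-high library gave log2 ratios of 2.40 and 2.32, and 12 were higher and none lower. Acta2 in AdvFB cells was 1485 CPM in the GFP-low library and 35.0 CPM in the other, while in MatFB-Type 2 cells it was 53.3 and 189 CPM. Without the 40 AdvFB cells with high Acta2, the GFP-low ratios were -0.70 for Acta2 and 0.09 for Tagln, and 2 contractile genes were lower and 5 higher. These cells were chosen by their Acta2 level, on the AdvFB side only. A smaller gap in Acta2, and in genes that go with it, was therefore built into the choice. The GFP-high side rested in part on 3 of the 44 MatFB-Type 2 cells, which carried myofibroblast UMIs and are described with the comparison across gates. Without these 3 cells Acta2 was at 112 CPM, with a log2 ratio of 1.64 over AdvFB. Tagln was at 34.2 CPM, with a ratio of 0.34 and below the level needed for a call. Of the 25 contractile genes 7 were then higher and none lower. With both sets of cells left out Acta2 kept opposite signs, and Tagln did not. The difference between the libraries was not tested.

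MatFB-Im,Cuff is a further matrix fibroblast name in the annotation, whose abbreviations the sources used here do not spell out. It was much closer to MatFB-Type 2. Among GFP-low cells 87 of 3783 genes (2.3%) were at least 2-fold higher in MatFB-Type 2 and 115 (3.04%) lower than in 205 MatFB-Im,Cuff cells. With 44 against 110 cells of the GFP-high library, 213 of 4136 genes (5.15%) were higher and 257 (6.21%) lower. Calls made in both libraries were 37 higher, which is 42.5% of the GFP-low calls and 17.4% of the others, and 36 lower (31.3% and 14.01%), with no opposite call among the higher and 6 among the lower.

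Over MatFB-Im,Cuff, Ccser1 stood at 63.3 CPM against 6.87 (9.21-fold, 6.36 to 13.8), the sphingosine receptor S1pr1 at 63.9 against 13.5 (4.73-fold), Bmper at 444 against 102 (4.34-fold), Inpp4b at 751 against 179 (4.20-fold), and Ces1d and C7 were 4.22-fold and 4.16-fold higher. Slc7a10, a small neutral amino acid carrier, was at 135 CPM against 38.4 (3.53-fold). The markers were graded: Nebl was 2.12-fold and Wnt2 2.18-fold higher, Npnt 1.76-fold and Limch1 1.41-fold, and Tcf21 was level at 1051 against 1071 CPM (1.02-fold lower, 0.985 to 1.05). Of 26 alveolar fibroblast markers 9 were higher and none lower, with a median log2 ratio of 0.81 beside 0.07 over all genes. The same list in the GFP-high library had 17 higher and none lower with a median of 2.27, and there Nebl was 15.01-fold higher (13.3 to 17.0) and C7 27.1-fold (17.7 to 43.6). The wider gap in that library comes with lower levels in MatFB-Im,Cuff: its Nebl was 143 CPM there and 1474 CPM in the GFP-low library.

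The lowest genes against MatFB-Im,Cuff included matrix and immediate early genes. Itgbl1, an integrin β-like protein, stood at 1.37 CPM against 63.1 (45.9-fold lower), the imprinted RNA Meg3 at 4.58 against 92.4 (20.2-fold), the sulfatase Sulf1 at 3.89 against 62.3 (16.0-fold), Col14a1 at 5.57 against 66.4 (11.9-fold) and plasminogen activator Plat at 4.12 against 56.9 (13.8-fold). Of 21 elastic fibre genes 3 were lower, Mfap5 at 71.9 CPM against 311, Fbn2 at 17.5 against 97.7 and Fbln1 at 38.3 against 117, and 7 were lower in the other library. Fbn2, a fibrillin of developing matrix, was 5.59-fold lower (4.75 to 6.60) in the GFP-low library and 11.8-fold lower (8.32 to 17.4) in the other. Eln was at 4010 CPM against 5206 and was not called.

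Immediate early genes, which are induced within minutes by growth factors or by tissue dissociation, were among the genes of the lower side. The list used for them also holds heat shock genes such as Hspa1a and Hspa1b. Of 25 in the list 17 were lower than in MatFB-Im,Cuff and none higher, with a median log2 ratio of -2.19. Of all tested genes 115 (3.04%) were lower in that comparison and 87 (2.3%) higher. Fos stood at 139 CPM against 1436 (10.3-fold lower, 9.79 to 10.9), Jun at 211 against 1412 (6.68-fold, 6.39 to 6.99), Egr1 at 83.5 against 715 (8.56-fold, 7.99 to 9.18) and Nr4a1 at 18.0 against 199 (11.1-fold). In the GFP-high library 4 of the 25 were lower and the median was -0.46, with Fos at 986 CPM against 1368. The share of all tested genes called lower there was 6.21%. The list was also lower against AdvFB in the GFP-low library, with 21 genes lower and none higher, and against MyoFB, with 17 lower and none higher. The shares of all tested genes called lower were 14.9% and 13.2%. The GFP-high library had 7 lower and 2 higher against AdvFB, and 5 higher and none lower against MyoFB. Of all tested genes there, 10.6% were lower and 11.4% higher against AdvFB, and 11.5% higher and 11.8% lower against MyoFB. The summed level of the list moved with the library more in MatFB-Type 2 than in MatFB-Im,Cuff, AdvFB and MyoFB: 1723 CPM and 6911 CPM in MatFB-Type 2, 8907 and 10449 in MatFB-Im,Cuff, 11635 and 12473 in AdvFB, and 4938 and 4299 in MyoFB. MatFB-Type 1, at 1422 CPM in the GFP-low library, had 16 cells in the other and is left out here. Its Fos and Jun levels are given with the comparison across gates. Whether cell handling differed between the sorts was not tested.

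**Figure D3:**
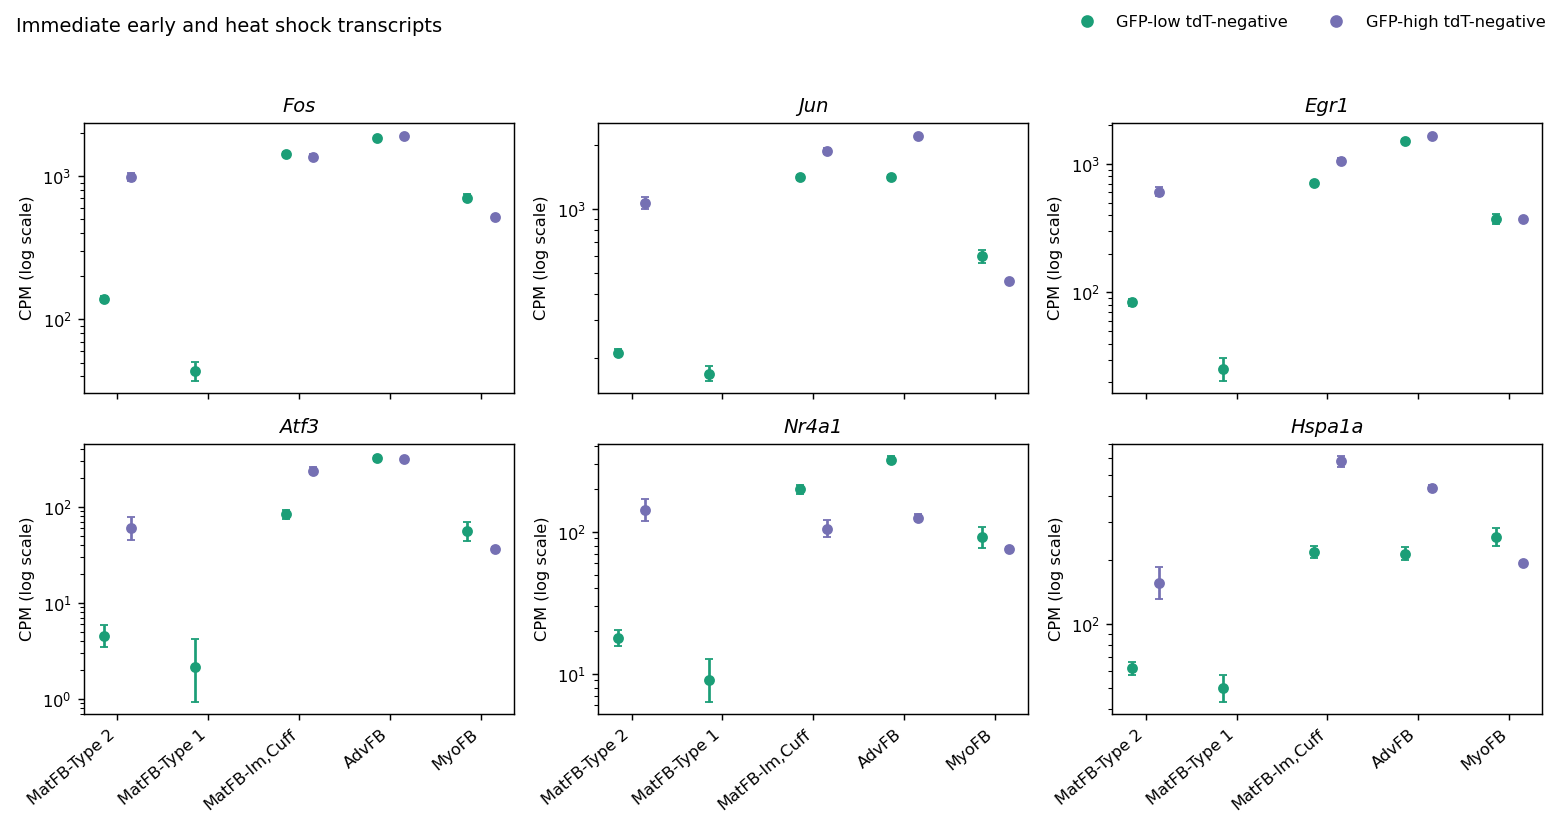
CPM (log scale) of Fos, Jun, Egr1, Atf3, Nr4a1 and Hspa1a in 5 cell types, with green points for the GFP-low library, purple points for the GFP-high library and bars for the exact 95% counting interval. MatFB-Type 2 cells of the GFP-low library lie below those of the GFP-high library in every panel, Fos at 139 against 986 CPM. Fos, Jun and Egr1 are lower still in all MatFB-Type 1 cells of the GFP-low library. For Jun this order turned within cells with Y-linked UMIs only, a split described below.

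MatFB-Type 1 was the nearest neighbour of MatFB-Type 2. It held 199 cells in the GFP-low library and 16 in the GFP-high library, below the 40 cells set for a comparison. In the GFP-low library 58 of 3736 genes (1.55%) were at least 2-fold higher in MatFB-Type 2 and 70 (1.87%) lower. The 5 markers did not separate them: Nebl was at 3126 CPM against 3881, Limch1 at 4371 against 4885, Npnt at 2176 against 1816, Tcf21 at 1051 against 858 and Wnt2 at 123.1 against 85.2. Nebl and Limch1 were lower and the other 3 higher, each by under 1.5-fold.

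The highest genes over MatFB-Type 1 included matrix and adhesion genes. Versican, Vcan, a large proteoglycan of provisional matrix, stood at 253 CPM against 45.9 (5.50-fold, 4.71 to 6.45), the collagen-binding integrin subunit Itga1 at 105 against 22.0 (4.77-fold), and the hyaluronan receptor Cd44 at 62.6 against 14.8 (4.23-fold). Inpp4b stood at 751 CPM against 152 (4.93-fold, 4.53 to 5.38), Kctd8, a GABA-B receptor auxiliary subunit, at 69.3 against 12.4, and Rspo2 at 105 against 30.6 (3.41-fold). Tgfb2 was higher at 253 CPM against 89.5 (2.82-fold, 2.52 to 3.17). On the lower side stood the protocadherin Pcdh9 at 7.02 CPM against 93.2 (13.3-fold lower), the kelch protein Klhl2 at 48.1 against 190 (3.95-fold), the protease Adamts15 at 44.1 against 172 (3.90-fold), prostacyclin synthase Ptgis at 68.4 against 224 (3.28-fold) and Fkbp5 at 86.6 against 292 (3.37-fold, 3.09 to 3.66). Eln was at 4010 CPM against 7421 and was not called.

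Some glucocorticoid-responsive genes were lower in MatFB-Type 2. The median log2 ratio of the 16 genes of that list was -0.62 beside 0.03 over all genes. Beside 1.87% lower and 1.55% higher of all tested genes, none of the 16 was higher and 3 were lower. They were Fkbp5, a chaperone induced by the glucocorticoid receptor, glutamine synthetase Glul at 112 CPM against 336 (2.99-fold, 2.77 to 3.22) and the leucine zipper gene Tsc22d3 at 143 against 308 (2.16-fold, 2.00 to 2.32). Hsd11b1 itself was not among them. Within cells that had Y-linked UMIs and no Xist, a split described next, Fkbp5 and Glul were still called lower, Glul at 122.6 CPM against 342, but Tsc22d3 was not, at 198 CPM against 311 (1.57-fold lower, 1.44 to 1.71).

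Sex-linked transcripts divided these types, and were looked at after their values had been seen. Of the 199 MatFB-Type 1 cells of the GFP-low library 191 (96.0%) had a UMI of a Y-linked gene (Ddx3y, Uty, Kdm5d or Eif2s3y) and none of Xist, the RNA of the inactive X, and 2 had Xist only. All 16 MatFB-Type 1 cells of the GFP-high library had Y-linked UMIs only. MatFB-Type 2 cells of the GFP-low library were mixed, with 311 Xist only (47.8%), 248 Y-linked only (38.1%), 17 with both and 75 with neither. MatFB-Im,Cuff had 97 Xist only and 83 Y-linked only, AdvFB 40 and 82, and MyoFB 18 and 40. So MatFB-Type 1 came nearly wholly from cells of male type, whereas the other types held both. On all cells of this library, animal, sex and type cannot be told apart. Within cells of male type, the animal of origin and the type still cannot be told apart.

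The difference from MatFB-Type 1 was therefore also taken within cells that had Y-linked UMIs and no Xist. Between 248 MatFB-Type 2 and 191 MatFB-Type 1 cells, 56 of 3744 genes (1.5%) were higher and 80 (2.14%) lower. Of the 58 higher calls on all cells 40 were made again, and of the 70 lower calls 56. Vcan was at 300 CPM against 45.3 (log2 ratio 2.70), Inpp4b at 702 against 157 (2.15), Pcdh9 at 3.01 against 95.6 (-4.59) and Fkbp5 at 102 against 292 (-1.51). Fos and Egr1 were not called there, at 70.7 CPM against 45.3 and 34.7 against 26.3. Vcan, Inpp4b, Pcdh9 and Fkbp5 thus kept their side within cells of male type, and Fos and Egr1 lost their call. Jun changed side, from 211 CPM against 168 on all cells to 102 against 175 (log2 ratio -0.77), without a call in either.

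**Figure D4:**
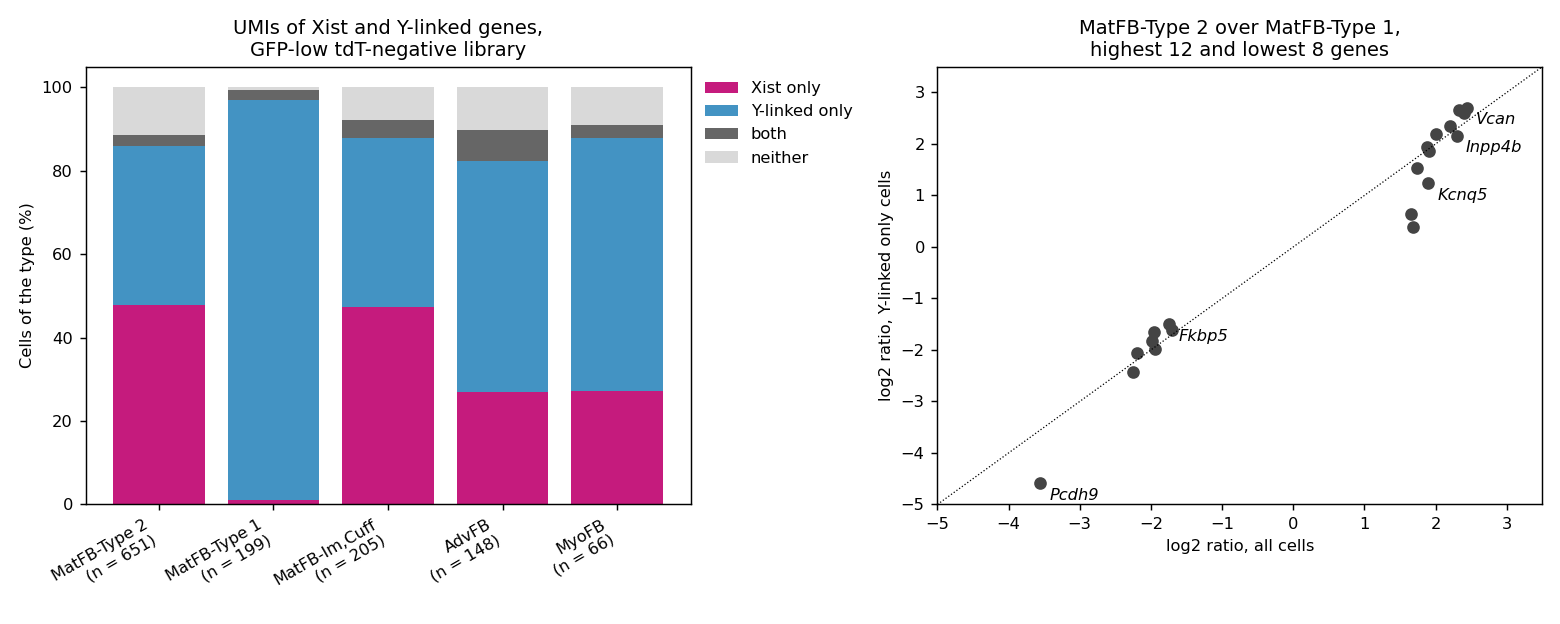
Left, the share of cells of each type in the GFP-low library with UMIs of Xist only, of Y-linked genes only, of both or of neither; right, the log2 ratio of CPM + 1 of MatFB-Type 2 over MatFB-Type 1 on all cells (horizontal) and on cells with Y-linked UMIs only (vertical) for the 12 highest and 8 lowest genes, with a dotted line of equality. Of the MatFB-Type 1 cells 96.0% had Y-linked UMIs only against 38.1% of MatFB-Type 2 cells, and most points lie near the line, with 2 genes near 0.5 on the vertical axis.

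A few genes stood highest in MatFB-Type 2 among the 5 types of the GFP-low library. All 4 ratios below share the MatFB-Type 2 cells, so they are not independent of each other. Inpp4b was at 751 CPM in MatFB-Type 2, 179 in MatFB-Im,Cuff, 152 in MatFB-Type 1, 21.7 in AdvFB and 7.37 in MyoFB. Fat3 was at 880, 314, 421, 8.15 and 74.4 CPM in the same order, and Rspo2 at 105, 33.2, 30.6, 0.815 and 0 CPM. They are among 7 genes that were at least 2-fold higher in MatFB-Type 2 than in each of the other 4 types. In the GFP-high library Inpp4b was at 355 CPM against 38.6 in MatFB-Im,Cuff, 11.9 in AdvFB and 9.67 in MyoFB. MatFB-Type 1, with 16 cells there, was not compared. Others of the 7 were Kctd8, S1pr1 and Phactr3, at 69.3, 63.9 and 55.9 CPM in MatFB-Type 2 of the GFP-low library. In MatFB-Type 2 of the GFP-high library they were lower, at 11.2, 15.7 and 12.4 CPM.

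Within the class, cells of the GFP-low library were compared by the variance of each gene over its mean after thinning every cell to 5000 UMIs, where counting noise alone gives 1. Over 3240 genes with at least 50 CPM the median was 1.18, the 95th percentile 2.27, and 6.82% of genes were above 2. The highest values belonged to Rn18s-rs5, a ribosomal RNA sequence (93.4), and the nuclear RNA Malat1 (57.1). Hepatocyte growth factor, Hgf, followed at 11.7: its level was 67.9 CPM, the median thinned cell had 0 UMIs and the highest had 42. Slit2 (10.6), Mfap4 (9.50), matrix Gla protein Mgp (8.69), Macf1 (8.36) and Eln (8.15) were abundant genes. At a like relative spread this measure rises with level. Macf1 had a median of 50 UMIs per thinned cell and a 90th percentile of 80, Mfap4 had 42 and 72, and Slit2 19 and 41. Inmt (7.92) was uneven, with a median of 0 and a maximum of 35 UMIs per thinned cell, and so was C7 (7.05), with a median of 1 and a maximum of 44. The heat shock genes Hspa1b (8.09) and Hspa1a (7.16) and the immediate early genes Fos (7.76) and Jun (7.30) completed the list with Cmss1 (7.82).

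Some of these variable genes also differed with the sex-linked transcripts. The share of the spread that goes with this split was not computed. Between 311 cells with Xist only and 248 with Y-linked UMIs only, 27 of 3617 genes (0.746%) were at least 2-fold higher in the former and 13 (0.359%) lower, the sex-linked genes themselves included. The immediate early genes Egr1 (131 CPM against 34.7, 3.79-fold, 3.21 to 4.49), Jun (320 against 102, 3.12-fold) and Fos (200 against 70.7, 2.84-fold) were higher in the Xist cells, as were Hspa1a (94.1 against 20.1, 4.69-fold) and Upk1b, a uroplakin (63.3 against 8.43, 7.51-fold). Aspn, asporin (177 against 61.8), the laminin chain Lama2 (285 against 124) and Hgf (68.1 against 27.9) were also higher. Over all cells of the class Hgf was at 67.9 CPM, so cells outside both groups had more of it than either group. St6galnac3, a sialyltransferase, was 11.1-fold lower at 9.05 CPM against 100, the sodium-calcium exchanger Slc8a3 4.44-fold lower, and Aldh1a1 3.13-fold and Ces1d 2.62-fold lower at 56.2 against 176 and 117 against 307. The glucocorticoid-induced genes Zbtb16 (299 against 633) and Tsc22d3 (95.3 against 198) were lower as well. With 1 library, sex and the animal of origin cannot be told apart.

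The comparison across gates asks whether MatFB-Type 2 cells sorted as GFP-high resemble those sorted as GFP-low. Of 3925 genes 182 (4.64%) were at least 2-fold higher in the 44 GFP-high cells and 88 (2.24%) lower than in the 651 GFP-low cells. The sorted reporter differed in the direction of the gate but by little: H2BGFP was at 60.7 CPM against 35.6 (1.70-fold, 1.26 to 2.26) and Pdgfra at 238 against 130 (1.84-fold, 1.58 to 2.12). Without the 3 cells with myofibroblast UMIs, described next, Pdgfra was at 209 CPM (1.61-fold, 1.37 to 1.89). H2BGFP was then at 63.4 CPM (1.78-fold, 1.30 to 2.39). In both libraries pooled MyoFB had more of both, with H2BGFP at 154 and 231 CPM and Pdgfra at 272 and 492. Its MyoFB-Ter cells did not hold to this. They had 2.09 CPM of each in the GFP-low library, and H2BGFP at 83.4 and Pdgfra at 209 CPM in the other. Markers were retained: Nebl was at 2152 CPM against 3126, Npnt 1534 against 2176, Limch1 3866 against 4371 and Tcf21 805 against 1051, none called, and Wnt2 was 3.65-fold lower at 33.7 against 123.1 (2.55 to 5.43). Library and gate cannot be told apart here.

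The highest ratios were of myofibroblast genes, and their size rested on few cells. Tgfbi was at 92.2 CPM against 0.992, Nrxn3 at 133 against 2.21, Egfem1 at 557 against 15.2 and Htra1, a secreted serine protease, at 74.2 against 1.30. Of the 44 cells 3 carried 0.873%, 0.642% and 0.534% of their UMIs in 5 myofibroblast genes, and the next cell carried 0.0640%. Of the GFP-low cells 1 of 651 cells exceeded 0.1%, at 0.272%. Without the 3 cells Egfem1 was at 77.4 CPM, still 5.10-fold higher (3.76 to 6.82), with a UMI in 75.6% of the 41 cells. Tgfbi was at 10.1 CPM (10.2-fold higher, 3.68 to 26.6), Nrxn3 at 19.02 (8.60-fold, 4.28 to 16.6) and Htra1 at 15.2 (11.7-fold, 5.11 to 26.1). In the same library 70.1% of AdvFB cells and 68.2% of MatFB-Im,Cuff cells also had an Egfem1 UMI, and MyoFB was at 11208 CPM. The part of free RNA from MyoFB in these values was not tested. Tagln was at 34.2 CPM, below its 101 in the GFP-low library. The counts were 176 higher, 156 of them shared with the call on all 44 cells, and 95 lower, 79 of them shared. No doublet caller was run, and whether these 3 barcodes hold more than 1 cell was not tested.

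**Figure D5:**
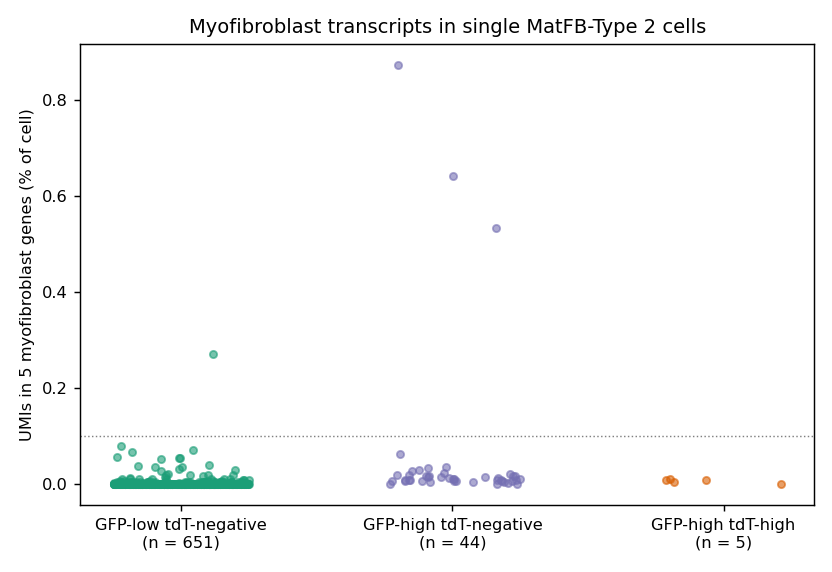
Share of each MatFB-Type 2 cell's UMIs (percent) in 5 myofibroblast genes (Egfem1, Tgfbi, Nrxn3, Htra1 and P2ry14), by library, 1 point per cell with horizontal jitter and a dotted line at 0.1%. In the GFP-high library 3 of 44 cells lie between 0.534% and 0.873% and the rest at or below 0.0640%.

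Immediate early genes were higher with and without those cells. Of 25 in the list 16 were higher in the GFP-high cells and none lower, with a median log2 ratio of 1.67 beside -0.02 over all genes (0.11 at the 3-count limit), and 16 with a median of 1.84 without the 3 cells. With all 44 cells, 4.64% of all tested genes were higher and 2.24% lower. Fos was at 986 CPM against 139 (7.08-fold, 6.53 to 7.68), Jun at 1064 against 211 (5.03-fold, 4.67 to 5.42), Egr1 at 609 against 83.5 (7.30-fold, 6.57 to 8.09) and Atf3 at 59.6 against 4.58 (13.02-fold, 8.83 to 19.2). The Krüppel-like factors Klf4, at 186 CPM against 5.72 (32.4-fold, 24.5 to 43.2), and Klf2, at 273 against 20.5 (13.3-fold, 11.1 to 15.9), moved the same way. In the 16 MatFB-Type 1 cells of the GFP-high library Fos was 905 CPM and Jun 1195, against 43.5 and 168 in that type's GFP-low cells, which is the same direction, in too few cells for a comparison.

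Other genes higher in the GFP-high cells were retinol-binding protein Rbp4 (287 CPM against 14.5, 19.8-fold, 16.3 to 24.0), Meg3 (92.2 against 4.58, 20.1-fold, 14.3 to 28.6), Sulf1 (69.7 against 3.89, 17.9-fold), Lama2 (696 against 205, 3.39-fold), Mfap5 (361 against 71.9, 5.02-fold) and Igf1 (476 against 175, 2.72-fold). Rbp4 and Meg3 had 308 and 91.3 CPM without the 3 cells. The lower genes included alveolar fibroblast genes. Kctd8 was 6.16-fold lower (3.33 to 12.9), Ces1d 5.47-fold (3.91 to 7.92), S1pr1 4.06-fold (2.40 to 7.45), Slc7a10 3.44-fold (2.47 to 4.96), Fat3 3.40-fold (2.99 to 3.89) and Fgfr4 2.64-fold (2.21 to 3.17). The list of 26 alveolar fibroblast markers had 6 called lower and 0 higher, beside 2.24% and 4.64% of all tested genes. Meg3, Sulf1, Lama2, Mfap5 and Klf4 were also higher in MatFB-Im,Cuff than in MatFB-Type 2 of the GFP-low library, at 92.4, 62.3, 526, 311 and 79.2 CPM.

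Transcripts of the lineage label were near 0 in MatFB-Type 2 cells. The Cre transcript had 0 UMIs in 651 cells of the GFP-low library, where MyoFB had 20.8 CPM, at least 90.8-fold lower. The GFP-high cells had 1 UMI of it, 1.12 CPM. The tdTomato transcript stood at 2.29 and 2.25 CPM in these libraries, and Fgf18 at 1.07 and 10.1 CPM. Both libraries were sorted tdT-negative, so the gate set the low tdTomato level in part. MyoFB of the same libraries had tdTomato at 6.03 and 4.96 CPM, and MatFB-Type 1 of the GFP-low library at 5.10. Without the 3 cells with myofibroblast UMIs Fgf18 had 1 UMI in the GFP-high library, 1.27 CPM. The 5 cells of the tdT-high library had 0 UMIs of tdTomato, Cre and Fgf18, which allows up to 29.5 CPM of each, while the MyoFB cells of that library had 60.2, 28.4 and 88.4 CPM. The MyoFB levels of tdTomato and Fgf18 lie above that limit and that of Cre just below it.

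Genes whose level followed the markers most closely were found over 15 groups of type and library with at least 40 cells, as the Pearson r of log2(CPM + 1) with the summed 5 markers. The groups share libraries and depth, and r is a description. The highest were Nrp2, a semaphorin and VEGF co-receptor, at 0.994, Fgfr3 and the kinase Nuak1 at 0.991, the peptidase Mme at 0.989, the exchange factor Dock4 at 0.988, and the amino acid carrier Slc36a2, Enpep, transglutaminase Tgm2, Rapgef5 and tensin Tns3, each at 0.987. Cd40, Mctp2, Rras2, Cmklr1 and Lbh closed the list, Lbh at 0.983. In MatFB-Type 2 of the GFP-low library these genes ran from 61.0 CPM for Mctp2 to 2548 for Dock4.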

How the data were processed

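The deposited matrix holds UMI counts per gene and cell, and the deposited annotation gives each cell's type, library and percent mitochondrial UMIs. Counts were made with Cell Ranger 7.0.0 on mm10, per the submitters' processing notes. Counts were summed over the cells of a type in a library and scaled to CPM. Ratios are log2 of CPM + 1, with exact conditional binomial 95% intervals. Named genes are the 12 highest and 8 lowest ratios, the 15 most variable, the 15 most like the markers, fixed markers, reporters and up to 4 per gene list, leaving out mitochondrial, ribosomal, haemoglobin, sex-linked and unnamed genes; some genes that met the rule are not reported here. Of 31730 symbols 30176 matched GENCODE M21. Members and lists were chosen with earlier results of these data known. Alternatives were scaling by TMM (edgeR 4.0.16) or size factors (DESeq2 1.42.0), other filters, thinning, and leaving out cells. The procedure was tested on simulated data. Computing used R 4.3.3 and Python 3.11.15 with pandas 2.3.3, scipy 1.17.1 and numpy 2.4.6. No doublet caller was run, and the sources used here do not say if doublets were removed before deposit.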

Additional observations from a re-analysis of the deposited data

Results flagged for a closer look

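The log2 ratios of 2 contractile genes had opposite signs in the GFP-low and GFP-high libraries. For Acta2, MatFB-Type 2 over AdvFB was -4.77 in the former and 2.40 in the latter, and for Tagln -3.45 and 2.32. For Acta2 over MatFB-Im,Cuff the values were -1.77 and 1.19. The GFP-low values of the AdvFB comparison include 40 AdvFB cells with high Acta2, and the GFP-high values rest in part on 3 MatFB-Type 2 cells with myofibroblast UMIs. The 40 cells were chosen by their Acta2 level, on the AdvFB side only. A smaller Acta2 gap without them was therefore built into the choice. Without the 40 AdvFB cells the GFP-low ratios were -0.70 for Acta2 and 0.09 for Tagln, and without the 3 cells the GFP-high ratios were 1.64 and 0.34, so Tagln no longer changed sign. Against MatFB-Im,Cuff, Acta2 was 0.44 without the 3 cells, under a 2-fold difference. The difference between the libraries was not tested, since each is a single library.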

How the results depend on the processing

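Counts of calls followed the filter. With 10 CPM and 5% of cells, higher and lower calls were 1029 and 1410 against MyoFB, 1188 and 1398 against AdvFB, 232 and 339 against MatFB-Im,Cuff and 196 and 173 against MatFB-Type 1 in the GFP-low library. In the GFP-high library they were 1074 and 1320 (MyoFB), 1099 and 992 (AdvFB) and 598 and 814 (MatFB-Im,Cuff), and across gates 599 and 438. With no filter the same order gave 2192 and 2766, 2150 and 2506, 632 and 719, 674 and 389, 2053 and 3546, 2425 and 2737, 2448 and 2342, and 1553 and 2074. Thinning gave 135 and 370 higher calls against MatFB-Im,Cuff in the 2 libraries, and 283 higher and 157 lower across gates. Cells with Y-linked UMIs only, an alternative chosen after seeing the data, gave 137 higher calls against MatFB-Im,Cuff. The other 157 recomputed summary values kept the main value within the set tolerance. Of the single-gene values 8197 stayed, 1743 moved and 8 reversed: Actc1 (0.20) and Hhip (1.80) against MyoFB of the other library, Acta2 (0.59), Tagln (1.88) and Eln (0.089) against AdvFB of the other library, Tagln (0.0903) without AdvFB cells over 1000 CPM of Acta2, and Tagln against MatFB-Im,Cuff of the GFP-high library without the top 5% of cells by UMIs (-0.76) or without the 3 cells with myofibroblast UMIs (-0.77). Their cause was not tested. TMM moved the centre of all genes by -0.25 against MyoFB (GFP-low), 0.24 against AdvFB (GFP-high) and 0.12 across gates. Depth limits genes near 0.229 CPM in the GFP-low library and 3.37 CPM in the other, and no replicate error can be given. No paired analysis was possible because each gate has 1 library.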
